A study of Mus musculus with 8 samples.

Results

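The microRNAs mmu-miR-132 and mmu-miR-212 are made from one bicistronic gene cluster and are described here in obstructed and unobstructed mouse kidneys. They were chosen by name, as the 2 features so named on the array, from 611 mouse miRNAs in all. The names were not chosen by a cut on measured values. The array had 2 probes for each, with 10 spots per probe.

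The samples were 8 kidneys from ICR mice, which are outbred, taken 7 days after ligation of one ureter. In unilateral ureteral obstruction (UUO) the ligated kidney cannot drain, and the labels name 4 such kidneys as the UUO group. The 4 control kidneys were contralateral, without obstruction, so they also came from operated mice and are not sham or untouched kidneys. The labels give no genotype or agent beyond the ligation and no age. They state neither that the kidneys of a group came from separate mice nor that equal numbers mark 1 mouse, so the p-values measure only the spread between these samples. Total RNA (100 ng) was labelled with 1 colour, Cy3, and each sample had its own Agilent miRNA array.

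Both miRNAs are processed from a common primary transcript whose promoter is activated by CREB, a transcription factor that responds to cyclic AMP and calcium signals. In neurons the cluster is induced by activity and neurotrophins, and miR-132 is known there for its part in dendrite growth. Outside the nervous system the cluster is known from the heart muscle, where it represses the transcription factor Foxo3, from endothelium and immune cells, and from kidney myofibroblasts and pericytes.

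The mature sequences show how closely the members are related. They are shown 5′ to 3′ from RefSeq (GRCm38.p6, plus strand), with the seed, bases 2 to 8, in capitals. Array names of this age carry no arm, and the names miR-132 and miR-212 then stood for the 3p arm. The probe sequences are not used here.
miR-132-3p: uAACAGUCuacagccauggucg
miR-212-3p: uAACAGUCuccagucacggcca

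The 3p sequences have one seed, and no other of the 1738 mature sequences of the RefSeq table carries it: the count with this seed was 2. The first 9 bases are identical and 17 of the 22 positions match. Counted from 1 at the 5′ end of miR-132-3p, the substitutions to miR-212-3p are A10C, C14U, U17C, U20C and G22A. A probe that pairs with one of these RNAs could in principle pair in part with the other, and cross-hybridisation was not tested.

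Both members matched the RefSeq table. The mature miR-132-3p lies at chr11:75173723-75173744 and miR-212-3p at chr11:75173443-75173464. The hairpins are shown because their order and spacing make the cluster, and capitals mark the 3p arm in each. That of miR-212 (Mir212, chr11:75173388-75173478) comes first, and 203 bases separate it from that of miR-132 (Mir132, chr11:75173682-75173747).
Mir212: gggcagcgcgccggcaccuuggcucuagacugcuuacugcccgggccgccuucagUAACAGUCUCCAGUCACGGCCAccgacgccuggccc
Mir132: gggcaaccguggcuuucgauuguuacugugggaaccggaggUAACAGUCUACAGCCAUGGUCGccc

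The nearest other genes in the RefSeq table are Hic1 on one side and Ovca2 on the other. Neither overlaps a hairpin.

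Levels are scaled signals: each array's spot intensities were divided by the 75th percentile of 371 probes well above background on all 8 arrays. That percentile was 417 to 582 intensity units on the control arrays and 514 to 1595 on the UUO arrays. Between 228 and 240 miRNAs were above background on a control array, and between 243 and 310 on a UUO array. The kidney identity of the samples was checked with markers: miR-192, miR-194, miR-30a, miR-10b and miR-204, abundant in kidney tubules, were above background on 8 of 8 arrays. The brain miRNA miR-124, the liver miRNA miR-122 and the pancreatic miR-216a and miR-217 were above background on 0 arrays. Other markers chosen for brain and pancreas were detected: miR-9 and miR-128 on 8 of 8 arrays and miR-375 on 5. The array of UUO kidney 2 stood apart from its group. Its mean correlation over the tested miRNAs was 0.964 with the control arrays and 0.887 with the other UUO arrays. The results on the members and the calls of the lists are therefore given with and without it.

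miR-132 was above background on all 8 arrays. Its scaled signal in the control kidneys was 0.0886, 0.0706, 0.164 and 0.0865, in the order of the kidney numbers. In the UUO kidneys it was 0.434, 0.0580, 0.281 and 1.49 in the same order. Kidneys 1, 3 and 4 of the UUO group lay above every control kidney, and UUO kidney 2 lay below every control kidney, at 0.821 of the lowest. The groups therefore overlapped through 1 kidney. The highest signal was 2.32 times the lowest in the control group and 25.7 times in the UUO group.

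**Figure D1:**
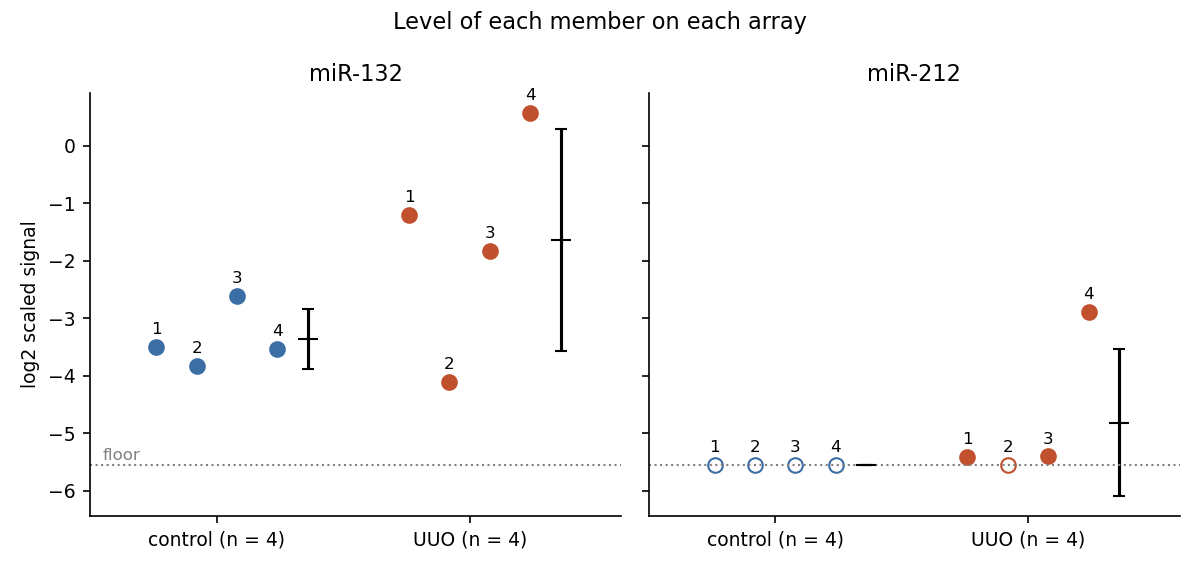
Log2 scaled signal of miR-132 and miR-212 in each kidney, with the group mean and SD (4 control and 4 UUO arrays); the line marks the common floor. UUO kidneys 1, 3 and 4 stand above the controls for miR-132, UUO kidney 2 stands below them, and UUO kidney 4 is highest for both miRNAs.

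On the log2 scale miR-132 averaged -3.36 ± 0.53 (SD, n = 4) in control and -1.64 ± 1.93 (SD, n = 4) in UUO kidneys. The mean difference was 1.72 ± 0.88 (SE), a 3.30-fold higher geometric mean in UUO, and missed the threshold of 0.05 by limma (adjusted p = 0.201 over the 222 miRNAs tested). The two-sided exact permutation test over the 70 assignments of arrays gave p = 0.143, where 0.0286 is the smallest it can give. Adjusted over the 3 exact tests made on the members, this p was 0.2. In this comparison 1.35% of tested miRNAs were called higher and 13.5% lower in UUO, and miR-132 was among neither. These 3 higher and 30 lower calls became 1 and 2 with quantile normalization, 3 and 0 with no scaling, and 0 of either with normexp or the percentile over all mouse probes. Its difference had rank 3 of 222 from the top, while the median tested miRNA differed by -0.14.

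Without UUO kidney 2, miR-132 was higher in UUO by 2.54 ± 0.58 (SE) on the log2 scale, or 5.83-fold (limma, adjusted p = 0.0107). With no filter on detection, the SE was 0.67 and the limma adjusted p was 0.0738, which missed the threshold of 0.05. The exact permutation test gave p = 0.0286, the smallest the 35 assignments allow (0.0429 adjusted over the 3 tests). Here 20.7% of tested miRNAs were called higher and 30.2% lower. The 3 remaining UUO kidneys all exceeded all 4 controls, as they did for 23.9% of tested miRNAs. Passing the test was thus common in this set of arrays, and by the size of the difference miR-132 had rank 2 of 222. UUO kidney 2 was singled out by its likeness to the controls over these same miRNAs. Leaving it out therefore favours differences between the groups, and the p-values without it do not allow for that choice.

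**Figure D2:**
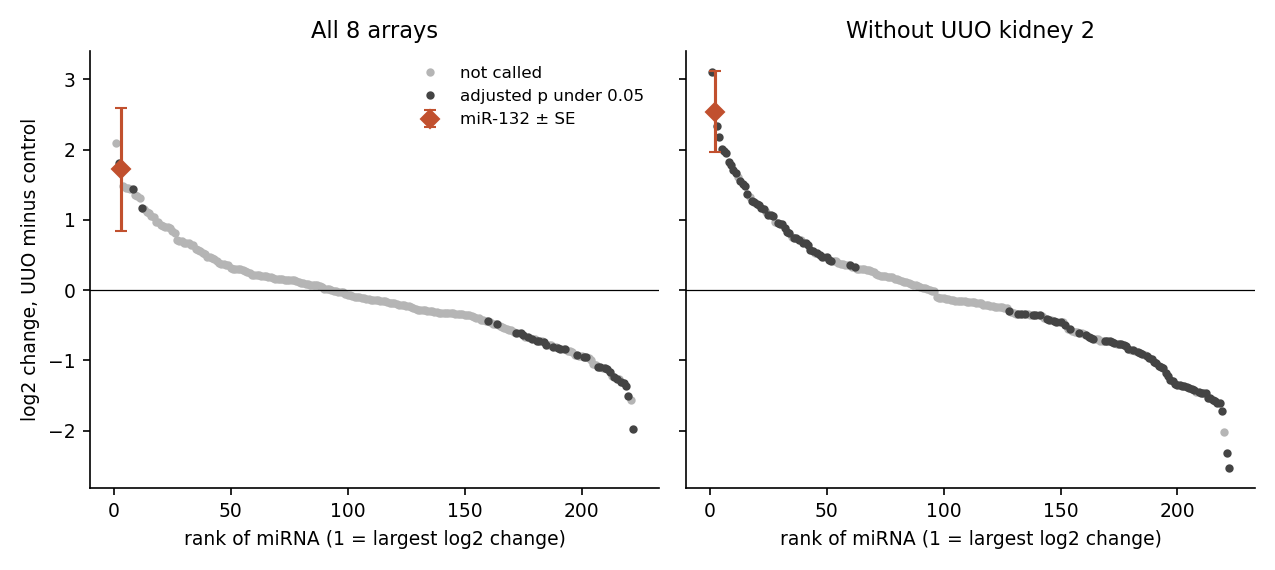
Log2 change, UUO minus control, of the 222 tested miRNAs in order of rank, on all 8 arrays and without UUO kidney 2. miR-132 is at rank 3 (1.72) with all arrays and at rank 2 (2.54) without UUO kidney 2.

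The UUO kidneys differed from each other in miR-132 by more than the groups did. Relative to the control mean, the log2 differences were 2.16, -0.74, 1.53 and 3.94 in UUO kidneys 1 to 4. As folds these are 4.47, 0.597, 2.89 and 15.3. Among the 222 tested miRNAs of each kidney, miR-132 ranked 6, 209, 9 and 2 from the top. In 3 kidneys it was thus among the most raised signals, and in UUO kidney 2 among the most lowered. Such ranks also occurred in control kidneys set against their own mean: miR-132 had rank 3 in control kidney 3, at 1.69-fold, and rank 212 in control kidney 2, at 0.727-fold.

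The UUO mean leaned on kidney 4 as well as on kidney 2. Without UUO kidney 4 the difference was 0.98 ± 0.69 (SE; limma, adjusted p = 0.393). With kidneys 2 and 4 both left out, a choice made after seeing the data, it was 1.85 ± 0.37 (SE; limma, adjusted p = 0.0114). Array quality weights, which gave UUO kidney 2 a weight of 0.114, put it at 2.09 ± 0.46 (SE; limma, adjusted p = 0.00497). That weight was the lowest of the 8 arrays and came from these same data. The weighted fit thus shares the limit stated for leaving UUO kidney 2 out. Only the weighted fit, the fit without kidneys 2 and 4, and the filtered fit without UUO kidney 2 passed the threshold. All 26 alternatives put the difference above 0.

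**Figure D3:**
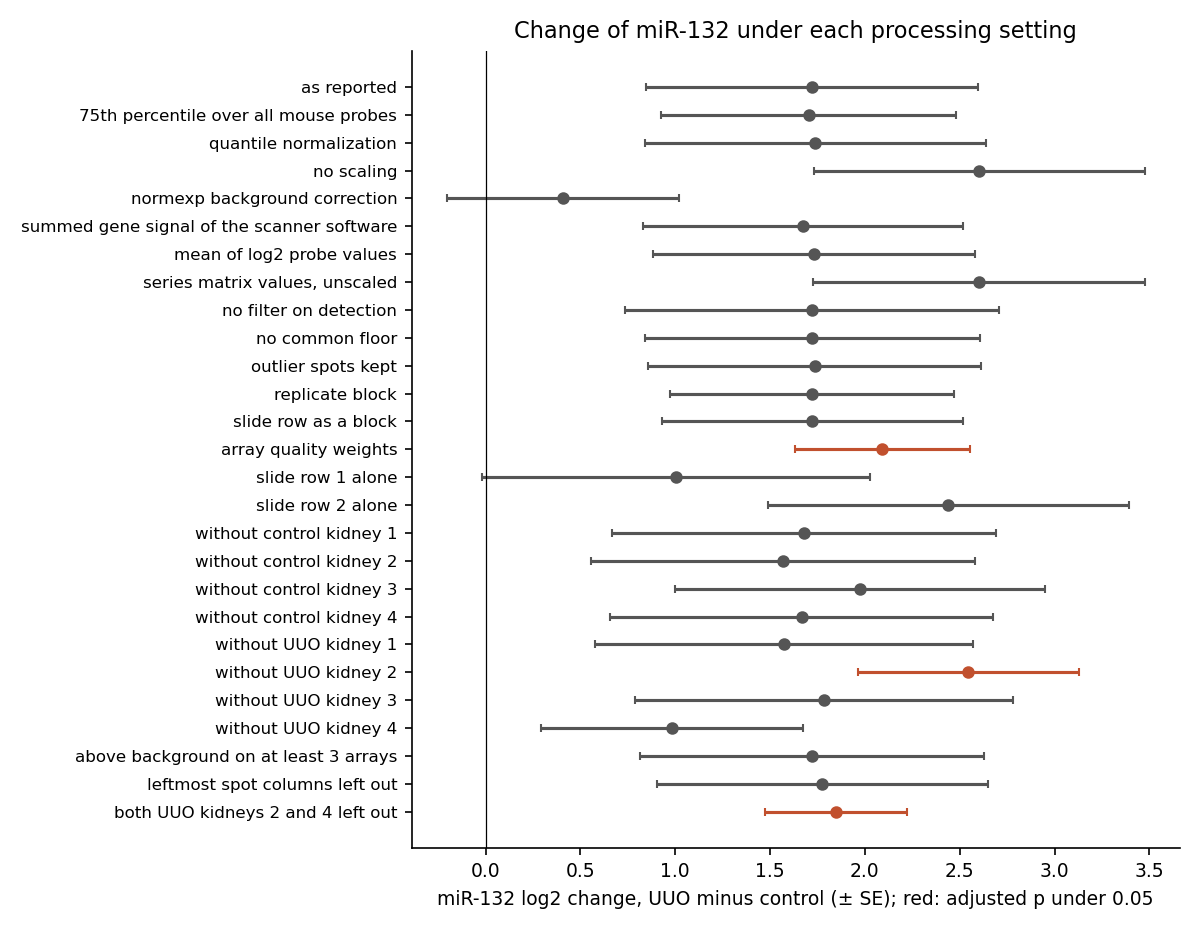
Log2 change of miR-132, UUO minus control, with its SE under the reported setting and 26 alternatives; red marks an adjusted p under 0.05. All estimates lie above 0, from 0.41 with normexp background correction to 2.60 with no scaling.

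The arrays lay in 2 rows of 1 slide, with kidneys 1 and 2 of both groups in row 1 and kidneys 3 and 4 of both in row 2. Within row 1 the difference of miR-132 was 1.00, and within row 2 it was 2.44 (2 against 2 arrays each). Both were above 0. The lower one comes from the row that holds UUO kidney 2, and the higher one from the row that holds UUO kidney 4.

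The 2 probes of miR-132 gave nearly equal differences. Probe A_54_P1054 was above background on 8 arrays and differed by 1.76 on the log2 scale (2.58 without UUO kidney 2). Probe A_54_P1055 was above background on 6 arrays and differed by 1.71 (2.42 without it). The signal of the first was 2.18 to 3.03 times that of the second across arrays. Before scaling, the mean intensity of A_54_P1054 was 32.0, 21.2, 64.9 and 35.4 in control kidneys 1 to 4. In UUO kidneys 1 to 4 it was 225, 21.6, 294 and 1626. By this probe before scaling, UUO kidney 2 thus lay at the low end of the controls rather than below them, and UUO kidney 4 was again far above all others. By A_54_P1055 before scaling, UUO kidney 2 (8.17) lay just below the lowest control (8.31).

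Spots of probe A_54_P1054 showed the separation within single arrays. After removal of outlier spots, the lowest A_54_P1054 spot of UUO kidneys 1 and 3 (scaled signal 0.167) exceeded the highest control spot (0.125). The highest spot of UUO kidney 2 was 0.0506. In UUO kidney 4 the lowest spot (0.964) exceeded the highest on any other array (0.383).

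Probe A_54_P1055 was less even. In UUO kidney 1 its 3 spots in the 16 leftmost columns of the array read 0.0402 to 0.0596, and the other 7 read 0.0983 to 0.148. In UUO kidney 3 the same 3 spots read 0.0284 to 0.0372 against 0.0644 to 0.0955. The lowest of these lay below the highest control spot of A_54_P1055 (0.0561), so this probe did not separate UUO kidneys 1 and 3 from control at every spot. Their spots outside the leftmost columns lay above it. Both arrays lay in the leftmost slide position (column 1) of their rows. In UUO kidney 4 the edge spots (0.444 to 0.493) were as bright as the others (0.444 to 0.481), and on UUO arrays 1 and 3 the 2 edge spots of A_54_P1054 lay within the range of its other spots. Leaving out all spots of those columns, a choice made after seeing the data, gave 1.78 ± 0.87 (SE; limma, adjusted p = 0.185) for miR-132.

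**Figure D4:**
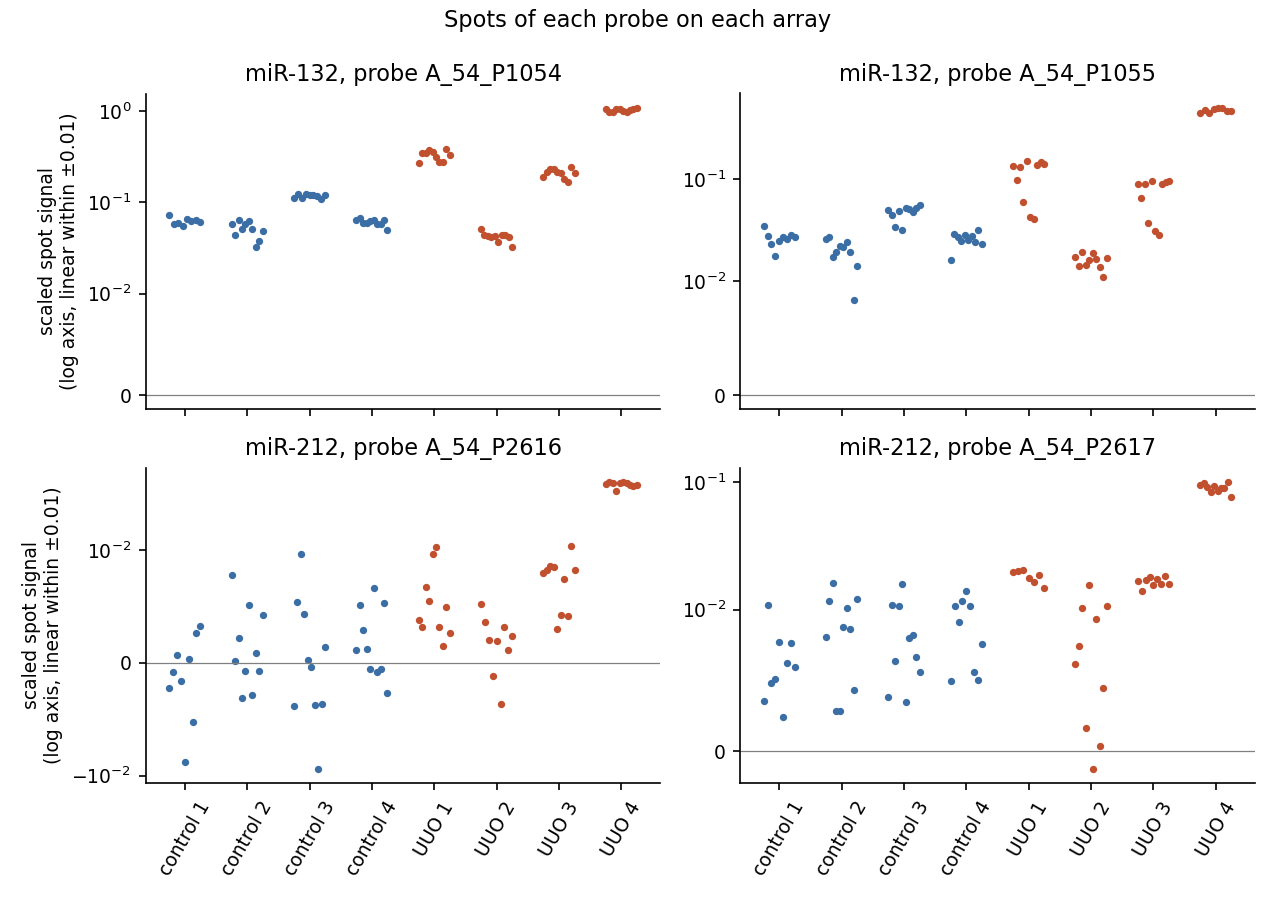
Scaled signal of every retained spot of the 4 member probes on each array (log axis, linear near 0). Spots of UUO kidney 4 lie above those of all other arrays for each probe, and A_54_P1055 shows 3 low spots in UUO kidneys 1 and 3.

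miR-212 was dimmer and was above background on 0 of 4 control arrays and on 3 of 4 UUO arrays. Its scaled signal was 0.00471, 0.00988, 0.00797 and 0.0106 in control kidneys 1 to 4, all not well above background. In UUO kidneys 1 to 4 it was 0.0234, 0.00809, 0.0237 and 0.135, and only that of kidney 2 was not well above background. UUO kidneys 1, 3 and 4 again lay above every control, and UUO kidney 2 lay among them. The mark for signal above background was set before scaling. The arrays of UUO kidneys 3 and 4 were brighter, with a 75th percentile of 1403 and 1595 against 417 to 582 in control. Probe A_54_P2617 of miR-212 counted as above background at 0.0165 in UUO kidney 3. Probe A_54_P1055 of miR-132 did not at 0.0199 in control kidney 2. The counts of arrays above background thus do not share 1 limit of scaled signal.

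A miRNA had to be above background on all arrays of a group to be tested, so miR-212 was not tested in the filtered fit. Signals below a common floor of 0.0213, near the lowest measurable signal, were set to it. With that floor, miR-212 averaged -5.56 in control, with every control kidney at the floor, and -4.82 ± 1.29 (SD, n = 4) in UUO on the log2 scale. The difference was 0.74 (exact permutation test, p = 0.143, and 0.2 adjusted over the 3 tests). In the limma fit without the filter, over 611 miRNAs, its SE was 0.63 and the adjusted p was 0.972. Without UUO kidney 2 the difference was 0.99, and the exact permutation p was 0.0286, the smallest possible (0.0429 adjusted over the 3 tests). The limma fit of those arrays without the filter gave an SE of 0.70 and an adjusted p of 0.535, above the threshold.

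Because the controls were not well above background, the fold was set against a detection limit. That limit was the mean over the control arrays of the lowest signal of probes above background. With UUO kidney 2 at its measured signal, which was not well above background, the mean of the 4 UUO kidneys was 1.30-fold the limit. UUO kidney 4 was at 6.29-fold, while kidneys 1 and 3 were at 1.09-fold and 1.10-fold. The limit is that of 1 probe, while miR-212 sums 2 probes, so it is not a strict bound. In UUO kidneys 1 and 3 the only probe above background, A_54_P2617, read 0.0182 and 0.0165. Both values lay under the limit of the lowest control array, 0.0195, so no least fold holds for these kidneys. Without UUO kidney 4 the floored difference was 0.097.

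The brighter probe A_54_P2617 carried most of the signal and was above background on 3 arrays. Its mean intensity before scaling was 3.10, 3.58, 4.39 and 5.13 in control and 12.6, 3.33, 23.2 and 144 in UUO kidneys 1 to 4. Probe A_54_P2616 was above background on 1 array. In UUO kidney 4 its lowest retained spot (scaled signal 0.0386) exceeded the highest on any other array (0.0109), and for A_54_P2617 these values were 0.0765 and 0.0206. Both probes thus placed UUO kidney 4 apart.

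The difference of miR-132 was larger than that of miR-212 by 0.98 on the log2 scale, which did not pass the exact permutation test (p = 0.2). Without UUO kidney 2 it was larger by 1.56 (exact permutation p = 0.0571). The floor lies above the measured miR-212 signal of every control: without a common floor the sign turned, to -0.095. Which of them differed more between the groups was therefore not detectable here. Where both were above background, UUO kidney 4 exceeded UUO kidney 3 by 5.30-fold for miR-132 and by 5.70-fold for miR-212. It exceeded UUO kidney 1 by 3.43-fold and 5.76-fold. Each member's ratio uses its own probes, and no level of one was set against the other.

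UUO kidney 4 held few other miRNAs at such an excess over UUO kidneys 1 and 3. The log2 excess over their mean was 2.09 for miR-132, rank 7 of 222, and 2.52 for miR-212, against a median of -0.02 over the tested miRNAs. The largest were 3.65 for miR-685 and 3.64 for miR-210, a miRNA known to be induced by hypoxia. These names were chosen after their values were seen.

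The miRNAs whose log2 signals followed miR-132 most closely over the 8 arrays were miR-23a (Pearson r = 0.940), miR-350 (0.937), miR-31 (0.931), miR-199b* (0.930) and miR-199a-5p (0.925), as a description. The median r with the tested miRNAs was -0.15. For deviations from the group means, the closest were miR-27b (0.979), miR-139-5p (0.955), miR-503 (0.945), miR-24 (0.933) and miR-532-5p (0.933). The 8 points share 1 slide and 1 scan. With UUO kidney 2 left out, these r were 0.912 to 0.932 for the log2 signals and 0.777 to 0.935 for the deviations.

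For miR-212 the closest were miR-685 (r = 0.937), miR-210 (0.882), miR-188-5p (0.880), miR-494 (0.860) and its cluster partner miR-132 (0.813). By deviations they were miR-222 (0.975), miR-685 (0.931), miR-494 (0.905), miR-188-5p (0.874) and miR-210 (0.855), and the r with miR-132 was 0.768. With UUO kidney 2 left out, the r by deviations lay between 0.859 (miR-132) and 0.971. The floor in the 4 controls and UUO kidney 2 leaves miR-212 with few distinct values.

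Other miRNAs have been described as targets of CREB. Of 6 on the array, 4 were tested, and 0 passed the test in either direction, against 1.35% higher and 13.5% lower over all tested. At an unadjusted limma p under 0.05 the count was 2 of 4, against 81 of 222 over all tested. Their median difference was 0.31, against -0.14 for all tested, but -0.82 against -0.62 with normexp background correction, under which all 4 lay below 0. miR-34c and miR-34b-5p, which come from one transcript and are also induced by p53, differed by 0.93 ± 0.31 and 0.72 ± 0.30 (SE; limma, adjusted p = 0.0788 and 0.127).

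In UUO kidneys 1 to 4, miR-34c differed from the control mean by 0.99, 0.27, 0.92 and 1.56. For miR-34b-5p these values were 0.75, 0.0053, 0.79 and 1.33. For both, kidney 4 was highest and kidney 2 lowest, the order seen at both ends for miR-132. Without UUO kidney 2, both were higher, by 1.15 ± 0.27 and 0.96 ± 0.24 (SE; limma, adjusted p = 0.0120 and 0.0152). miR-9 and miR-9*, from a neuronal gene, differed by -0.10 and -0.32 over the 8 arrays and by -0.15 and -0.46 without kidney 2. By kidney, miR-9 differed from the control mean by 0.081, 0.042, -0.14 and -0.40, and miR-9* by -0.017, 0.096, -0.52 and -0.84. For these, kidney 4 was thus the lowest. Of the 4 tested, 2 were thus called higher without kidney 2, where 20.7% of all tested were.

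Most neuronal miRNAs failed the detection filter. Of 7 on the array 1 was tested, miR-128, which differed by -0.27 ± 0.15 (SE; limma, adjusted p = 0.230) and by 0.61 with no scaling, where the median of all tested was 0.74. It differed by -0.18 ± 0.12 (SE; limma, adjusted p = 0.234) when UUO kidney 2 was left out. miR-124, the defining neuronal miRNA, was above background on 0 arrays, as were miR-137, miR-138 and miR-153. miR-219 was above background on 1 UUO array, and miR-134 on 2 control and 2 UUO arrays. The summed scaled level of the list was 0.172 to 0.282 in control and 0.160, 0.332, 0.173 and 0.243 in UUO kidneys 1 to 4, without the pattern of miR-132.

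Inflammation-induced miRNAs followed the order of the kidneys in part. Of 5 on the array 4 were tested, with a median difference of 1.08. Over the 8 arrays 0 were called, and without UUO kidney 2 all 4 were called higher (median 1.62), where 20.7% of all tested were. At an unadjusted limma p under 0.05, 2 of the 4 passed over the 8 arrays. miR-146b, induced by NF-kappaB signalling, differed in UUO kidneys 1 to 4 by 3.22, -0.91, 3.01 and 3.10 from the control mean. miR-155, known from activated immune cells, differed by 1.93, -0.52, 1.76 and 2.25, and miR-21, known from injured epithelium and fibrosis, by 1.49, -0.56, 1.11 and 1.19. All 3 placed UUO kidney 2 below the control mean, as miR-132 did, but none placed kidney 4 apart from kidneys 1 and 3 to the extent seen for miR-132.

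**Figure D5:**
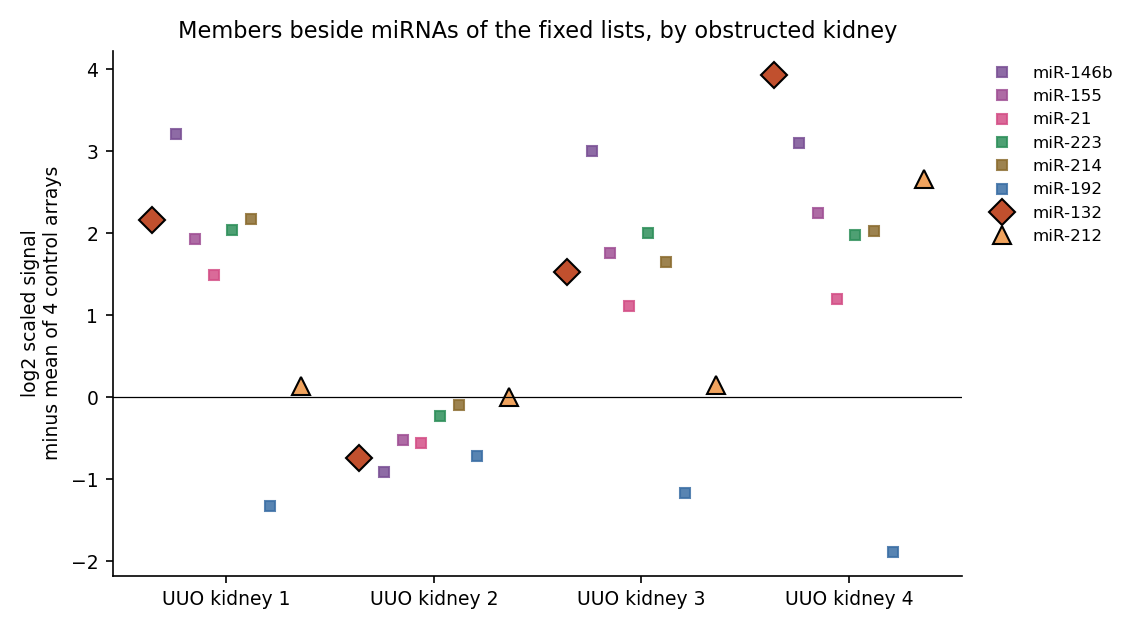
Log2 scaled signal minus the control mean in each UUO kidney for the members and 6 named miRNAs of other lists. miR-132 runs from -0.74 in kidney 2 to 3.94 in kidney 4, while miR-223 is near 2 in kidneys 1, 3 and 4.

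Like miR-132, summed leukocyte and fibroblast levels lay below the control range in UUO kidney 2 and above it in the other UUO kidneys. Their order among kidneys 1, 3 and 4 differed from that of miR-132. The part of any cell type in the values of miR-132 was not tested. The summed scaled level of 5 leukocyte miRNAs was 1.33 to 1.84 in control and 6.09, 1.29, 5.88 and 5.32 in UUO kidneys 1 to 4. Of these 3 were tested, and 0 were called over the 8 arrays (1.35% of all tested were called higher), with 2 at an unadjusted limma p under 0.05. Once UUO kidney 2 was left out, 3 were called higher, as were 20.7% of all tested. miR-223, abundant in neutrophils and macrophages, differed by 2.04, -0.23, 2.00 and 1.98 in UUO kidneys 1 to 4. The summed level and miR-223 were nearly level across kidneys 1, 3 and 4, where miR-132 spanned 5.30-fold. In these kidneys miR-342-3p differed by 2.51, 2.32 and 2.18, and miR-142-3p, less even, by 1.87, 1.84 and 1.30.

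For 4 fibroblast and fibrosis miRNAs on the array the summed level was 3.08 to 4.21 in control and 13.1, 2.49, 8.67 and 11.1 in UUO kidneys 1 to 4. Of these 3 were tested, and 0 were called with all arrays (1.35% of all tested were called higher), with 1 at an unadjusted limma p under 0.05. Leaving out UUO kidney 2, 3 were called higher, against 20.7% of all tested. miR-214, from a transcript expressed in mesenchymal cells, differed by 2.18, -0.094, 1.65 and 2.03. The smooth muscle and pericyte miRNAs miR-143 and miR-145 summed to 1.19 to 1.50 in control and 1.39, 0.938, 1.66 and 1.95 in UUO, and the 1 tested, miR-143, was not called with or without UUO kidney 2 (0.10 and 0.31).

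The endothelial miRNAs, miR-126-3p and miR-126-5p, summed to 12.1 to 15.2 in control and 10.5, 9.57, 11.4 and 13.2 in UUO kidneys. Of the 2 tested, miR-126-5p was called lower, with a difference of -0.81 ± 0.18 (SE; limma, adjusted p = 0.0266), and the list's median turned from -0.55 to 0.33 with no scaling. The value of miR-126-5p without UUO kidney 2 was -0.79 ± 0.19 (SE; limma, adjusted p = 0.0120) and was again called lower. Tubule miRNAs summed to 29.0 to 33.4 in control and 14.2, 22.1, 15.2 and 11.7 in UUO kidneys. Their median difference was -1.06, but -0.18 with no scaling, where that of all tested was 0.74. Of 4 tested, 3 were called lower over the 8 arrays and 3 without UUO kidney 2, against 13.5% and 30.2% of all tested, and miR-192, a tubule miRNA, differed by -1.32, -0.71, -1.16 and -1.89 in UUO kidneys 1 to 4. These 4 calls, the only ones among the list members, fell to 0 without control kidney 1, 3 or 4, or without UUO kidney 1 or 3, while 16 list members were called without UUO kidney 2. The summed tubule level was below the control range in UUO kidney 2 too, and its relation to miR-132 was not tested. In bulk kidney RNA, fewer cells of a type and less RNA per cell cannot be told apart.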

How the data were processed

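Kidney RNA from 4 control and 4 UUO samples was measured on 1-colour Agilent arrays. The intensity values are the deposited processed spot signals, with background subtracted per the file headers (Agilent Feature Extraction 10.1.1 per the submitters' processing notes, 10.7.3.1 per the file headers). Other deposited values used were the 0 or 1 marks per spot for outliers and for signal well above background. The series matrix held equal values. No spot was saturated, and 2.34% to 3.52% were outliers and left out.

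Spots were averaged per probe (1759 mouse probes), arrays were scaled to the 75th percentile, probes of a miRNA were summed and log2 was taken after signals were raised to at least 0.0213. A probe was above background when over 50% of its spots were so marked, and a miRNA when 1 probe was. The fit used limma 3.58.1 in R 4.3.3 (lmFit, eBayes, Benjamini-Hochberg over 222 miRNAs), with a threshold of 0.05 and after tests on simulated data. Folds are relative to the bright miRNAs of an array, and the number of arrays limits precision.

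The members and lists were chosen with earlier results of these data known. Both members were always named. Up to 4 tested miRNAs per list, called ones first and then by signal, could be named, with the 5 closest by correlation. Alternatives varied background correction, scaling, floor, filter, blocks, weights and samples.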

Additional observations from a re-analysis of the deposited data

Results flagged for a closer look

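The log2 signal of miR-212 in the UUO group stood out because 1 kidney lay far from the other 3. The gap between UUO kidney 4 and the next kidney made up 0.942 of the group's range, above Dixon's critical value for 4 samples, which chance exceeds in about 1 in 20 groups. The floor sets this share: UUO kidney 2 was raised to it, and kidneys 1 and 3 were just above it. On the measured signals, with no floor, the share was 0.619, below the critical value, so kidney 4 stands out in this way only on the floored scale. For miR-132 in the UUO group the share was 0.486, since UUO kidney 2 widened the range from below.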

How the results depend on the processing

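The difference of miR-132 stayed above 0 in all 26 alternatives (0.41 to 2.60, limma adjusted p 0.00497 to 0.925). It passed the threshold at 2.09 with array weights and 1.85 without UUO kidneys 2 and 4, and leaving out 1 kidney at a time gave 0.98 to 2.54. Normexp background correction moved the median of all tested miRNAs by -0.48 and no scaling by 0.88. Relative to that median miR-132 was at 1.03 with normexp, against 1.86 as reported. miR-212 moved to -0.79 with normexp, 1.74 with the summed gene signal and 1.82 without a floor, and to between 0.097 and 0.99 with 1 kidney left out. The miR-132 minus miR-212 difference turned to -0.061 with the summed gene signal and -0.095 without a floor, and ran from 0.64 to 1.56 with 1 kidney left out. The 4 called members of the lists became 0 with the percentile over all probes, no scaling, normexp, the series matrix, the replicate block or slide row 1 alone. They became 1 with quantile normalization or no filter, 12 in row 2 alone, 17 with array weights, 16 without UUO kidneys 2 and 4, and 0 to 16 with 1 kidney left out. Whether equal kidney numbers pair the samples is not known: deviations of same-numbered kidneys correlated at -0.35, 0.22, 0.62 and 0.015. With the replicate number as a block, miR-132 stayed at 1.72 (limma, adjusted p = 0.193). The fits with at least 3 arrays above background, without UUO kidneys 2 and 4, and without the leftmost spot columns were chosen after seeing the data. The causes were not tested. Signal near background limits miR-212.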
